A study of Rattus norvegicus with 8 samples.

Results

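The 100 circular RNAs that gave the brightest signal in control tissue were described on 8 arrays of rat penile tissue. Probes carrying the array's circRNA identifiers and never flagged as non-uniform on any array were ranked by mean level over Control 1 to Control 4, and members were chosen by that level as the 100 highest of 14089. They make up 0.71% of those probes, and values from the Model arrays played no part in the choice. Because Control values chose them, their Control levels, and every difference between Control and Model in those levels, are given as descriptions. Each level is the log2 processed signal with the array's own 75th percentile subtracted, so a level of 5 means 5 doublings above that point. Every one of the 100 probes was well above background on all 8 arrays.

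Samples fall into 4 labelled Control and 4 labelled Model, with 1 array each. The series title speaks of erectile dysfunction induced by diabetes, and the labels state that rats without an erection in the 30 min after 100 μg/kg of apomorphine, a dopamine agonist, were classed as affected. That Model means such rats is an inference from these statements. Strain, age and the way diabetes was induced are not given in the sources used here, nor is it said that each sample came from its own animal, so replicate spread may be partly technical.

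A circular RNA forms when a downstream splice donor joins an upstream splice acceptor, which closes 1 or more exons of a host gene into a loop without ends. Loops of this kind resist exonucleases such as RNase R, with which these RNAs were digested before labelling, and they tend to be long-lived in cells. Known functions of circRNAs include binding of microRNAs and of RNA-binding proteins. The brightest few are those most often followed up singly, but brightness also depends on how well a probe captures its target. Ranks below are therefore ranks of signal and not of copies per cell. Since whole tissue was sampled, fewer cells of a type and less circRNA per cell cannot be told apart. The files give each circRNA by its array identifier alone, with no host gene and no probe sequence. Of the 62 mRNA probes on this array, 39 could be given a gene symbol. Among those 39 were 0 of 27 markers of smooth muscle, endothelium, fibroblasts, epithelium, nerve, skeletal muscle, immune and red blood cells. The tissue label could therefore not be checked.

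The arrays differed in overall brightness. The 75th percentile was 47.9 intensity units on Control 2 and 127 on Control 4, with the other arrays between, and the median local background was 12.5 to 15.0. No spot was saturated. The scans form 3 runs, holding Control 1 alone, the other 3 Control arrays, and the 4 Model arrays. Control 2 to 4 were also read with a separate grid file. Scanning run and group therefore cannot be told apart. The SD over the 10 spots of an mRNA probe had a median of 0.080 to 0.13 (log2) per array, while the circRNA probes have 1 spot each.

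The brightest circRNA of control tissue was ASCRPR003948. Its level was 9.58 on Control 1, 10.64 on Control 2, 10.51 on Control 3 and 11.09 on Control 4, and it ranked first on all 4 of these arrays. On the Model arrays it stood at 5.88, 6.67, 5.90 and 4.37 in the order of their numbers. The groups did not overlap, and its mean went from 10.45 ± 0.64 to 5.71 ± 0.96 (SD, n = 4), 26.9-fold lower in Model. Next came ASCRPR013743, with 7.99, 9.54, 9.96 and 10.87 on Control 1 to 4 and 4.85, 6.66, 4.89 and 2.24 on Model 1 to 4. This circRNA held rank 2 in the Control mean and rank 346 in the Model mean.

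Other leading circRNAs kept high places in Model tissue. ASCRPR005965, at rank 3 in Control, was at 7.86, 8.54, 8.67 and 10.31 on the Control arrays and at 9.30, 9.80, 9.53 and 8.88 on the Model arrays. With a mean of 9.38 ± 0.39 (SD, n = 4) it was the brightest circRNA of the Model group, and its groups overlapped. Its mean difference was 0.53, and 0.77 in the deposited log2 table, without a call in either. Under quantile normalization it was 1.08, called higher in Model at a limma adjusted p under 0.05. ASCRPR000684 went from rank 7 to rank 8, with group means of 8.24 ± 0.64 and 8.50 ± 0.40 (SD, n = 4).

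The remaining 6 of the leading 10 shared a pattern on this scaling, with a wide spread in Control and a tight one in Model. ASCRPR001036 was at 6.0 on Control 1, 7.40 on Control 2, 9.61 on Control 3 and 11.08 on Control 4, against 7.41 to 7.90 on the Model arrays. ASCRPR002961 ran from 6.27 to 10.45 in Control and from 7.88 to 8.05 in Model, and ASCRPR006556 from 5.53 to 10.37 and from 6.90 to 7.33. For each of these probes the Model values lay inside the Control range on this scaling. The same was so for ASCRPR009859 (6.25 to 10.44 in Control, 7.95 to 8.41 in Model), ASCRPR013357 (6.43 to 10.41 and 8.05 to 8.21) and ASCRPR006555 (6.18 to 10.14 and 7.50 to 7.76). Under quantile normalization all 6 mean differences were negative, from -1.63 (ASCRPR006556) to -0.19 (ASCRPR013357). ASCRPR001036, ASCRPR002961, ASCRPR006556 and ASCRPR006555 then passed a limma adjusted p under 0.05 as lower in Model. In the deposited log2 table ASCRPR001036, ASCRPR006556 and ASCRPR006555 did so, while ASCRPR009859 and ASCRPR013357 differed by 0.34 and 0.44. High Control values chose these members, which favours a fall in Model, so these calls too are only descriptions.

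**Figure D1:**
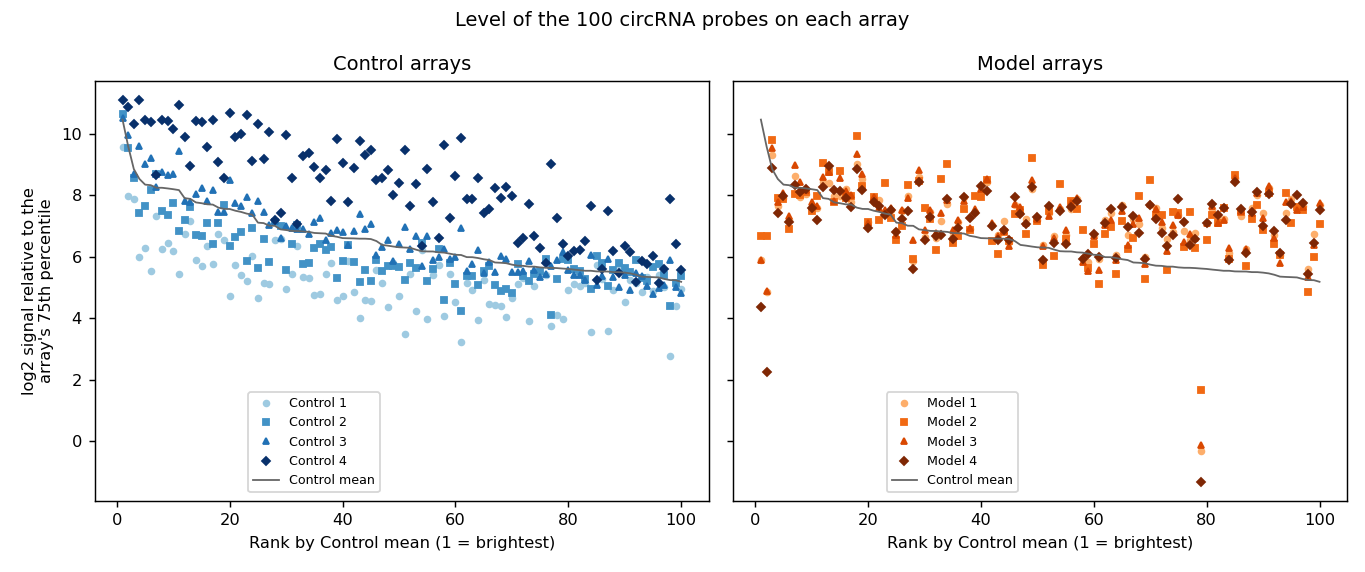
Level of each of the 100 circRNA probes on every array (log2, above the 75th percentile of that array), ordered by Control mean, with the 4 Control arrays on the left and the 4 Model arrays on the right. The grey line is the Control mean; the Control arrays fan out around it, with Control 4 highest for 92 probes and Control 1 lowest for 90, while the Model arrays lie close together.

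At the lower edge of the list the values ran on without a gap. The members ranked 99 and 100, ASCRPR004089 and ASCRPR013817, had Control means of 5.23 and 5.18. The next probes, ASCRPR009255 and ASCRPR005533, had 5.17 and 5.16 and were left out. Choosing again without 1 Control array returned 93 to 99 of the 100 members.

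On this scaling, Control arrays differed far more over these circRNAs than Model arrays did. The SD over the 4 Control arrays had a median of 1.35 over the 100 members and ran from 0.23 to 2.97, while the SD over the 4 Model arrays had a median of 0.23. For 93 members the Control SD was the larger, against 65.4% of all eligible circRNAs, whose median SDs were 0.36 in Control and 0.26 in Model. In all, 64 members had a Control SD over 1, against 4.23% of all. The wide Control spread was not confined to the list. Of the 100 circRNAs next below it in Control mean, 83.0% had the larger SD in Control and 40.0% a Control SD over 1. Their median SDs were 0.82 in Control and 0.27 in Model. The 50 lowest-ranked members also had a median Control SD of 0.82, and the 50 highest-ranked 1.73. The size of the spread pooled over both groups depended on the scaling. The median standard error of the members' Model minus Control difference, which pools them, was 0.57 here, 0.28 under quantile normalization and 0.33 in the deposited log2 table. SDs of the separate groups are given on this scaling only. The cause of the wide Control spread was not tested. The difference in spread was not tested either, since each group gives 1 SD per probe.

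The arrays had a regular place in this spread. Control 4 held the highest Control value of 92 members and Control 1 the lowest of 90, whereas over all circRNAs these shares were 34.2% and 31.0%. The median level of the 100 members was 5.15 on Control 1, 5.77 on Control 2, 6.40 on Control 3 and 8.44 on Control 4. On the Model arrays it was 7.40, 7.30, 7.39 and 7.30. The Model medians thus lay within the Control range, above 3 of the Control arrays and below Control 4, which also had the highest 75th percentile before scaling.

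The extremes of spread show the contrast. ASCRPR006668 had the largest Control SD, 2.97, with 3.22, 4.22, 6.92 and 9.84 on Control 1 to 4 against 5.11 to 5.97 on the Model arrays. ASCRPR008843, with an SD of 2.58, was at 4.71, 6.35, 8.47 and 10.65 on Control 1 to 4 and at 6.92 to 7.13 in Model. At the other end, ASCRPR002121 had a Control SD of 0.23, with 5.28 to 5.78 in Control and 7.31 to 7.53 in Model. ASCRPR005492, at 0.26, ran from 5.40 to 5.92 in Control and from 6.31 to 7.12 in Model. On this scaling both steady circRNAs stood higher on every Model array than on any Control array, but the direction depended on it. For ASCRPR005492 the mean difference of 1.05 became -0.40 under quantile normalization and -0.21 in the deposited table. For ASCRPR002121 the difference was 1.93, 0.64 and 1.39 in the same order.

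**Figure D2:**
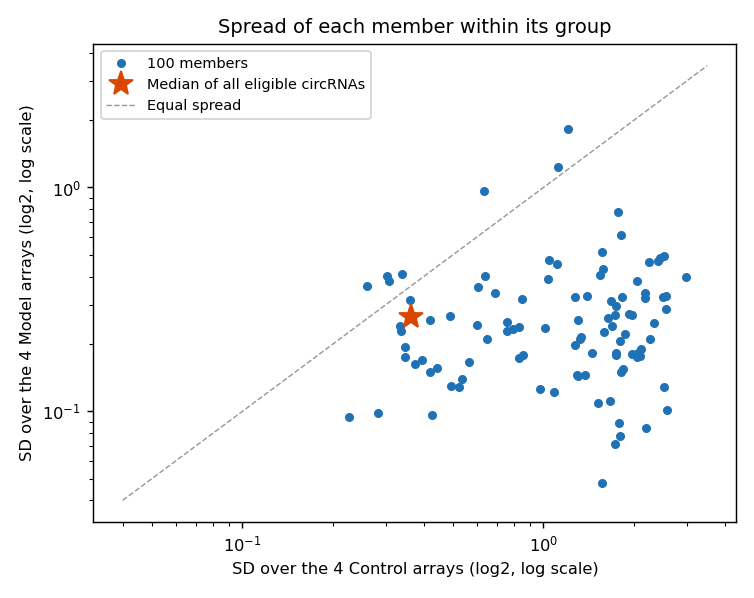
SD over the 4 Control arrays (x axis) against SD over the 4 Model arrays (y axis) for each of the 100 members, both on log scales in log2 units, with a star at the medians of all eligible circRNAs and a dashed line of equal spread. Of the 100 points 93 lie below the line, and the 3 highest on the y axis are ASCRPR013743, ASCRPR008579 and ASCRPR003948.

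The order among the members was kept in Model and loose in Control. Spearman's rho over the 100 members, which share an array, its scaling and a narrow range of brightness and are not independent replicates, was 0.81 to 0.97 between Model arrays. Between Control arrays it was 0.83 for Control 1 with 2, 0.63 for Control 2 with 3 and 0.90 for Control 3 with 4, but 0.17 for Control 1 with 4. Control 1 ranked the members more like the Model arrays (0.61 to 0.65) than like Control 4. For Control 4 with the Model arrays it was 0.013 to 0.20. Over all 14089 circRNAs every pair of arrays lay between 0.79 and 0.98.

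**Figure D3:**
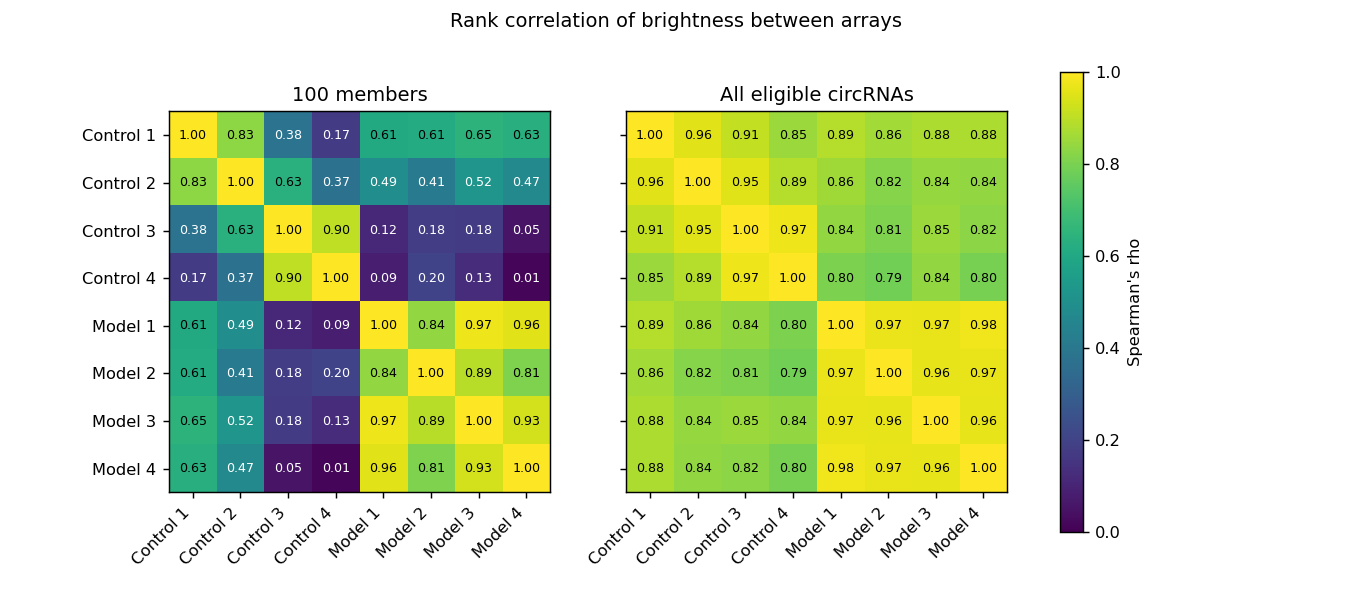
Spearman's rank correlation between each pair of arrays over the 100 members (left) and over all eligible circRNAs (right), from 0 (dark) to 1 (bright). Over the members the Model arrays form 1 bright block from 0.81 to 0.97. Among the Control arrays, those with neighbouring numbers are most alike: Control 1 with 2 (0.83), 2 with 3 (0.63) and 3 with 4 (0.90).

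The share of an array's summed circRNA signal is unchanged when a whole array is multiplied by 1 factor. It does change under other scalings. The 100 members held 27.1% of the summed signal on Control 1, 39.0% on Control 2, 49.6% on Control 3 and 68.9% on Control 4. On Model 1 to 4 they held 35.9%, 39.5%, 38.5% and 33.8%. The Model shares on this scale all lay inside the Control range, with means of 36.9% ± 2.59 in Model and 46.2% ± 17.7 in Control (SD, n = 4). Without Control 4 the Control mean was 38.6%, and in the deposited log2 table, where the Control arrays lay close together, the Model share was 4.44 percentage points the higher. The summed signal of the members differed 18.0-fold between the highest and the lowest Control array, and that of all other circRNAs 4.03-fold. Among the Model arrays these ratios were 1.39 and 1.56.

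Within that share 2 circRNAs set the leading 10 apart. The 10 brightest took 9.32%, 16.9%, 19.8% and 19.0% of the signal on Control 1 to 4 and 4.22% to 5.77% in Model, without overlap. Their choice by Control values favours a larger share in Control, so this is a description. Without ASCRPR003948 and ASCRPR013743 the other 8 took 4.14%, 7.79%, 12.1% and 13.7% on Control 1 to 4 and 4.17% to 5.59% in Model, and the groups overlapped (left out after seeing the data). ASCRPR003948 alone took 3.88%, 6.21%, 4.57% and 2.85% on Control 1 to 4 and 0.041% to 0.21% on the Model arrays, and ASCRPR013743 1.29% to 3.11% and 0.0093% to 0.21%. Members ranked 11 to 100 held 17.8% to 50.0% in Control and 29.6% to 34.1% in Model.

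**Figure D4:**
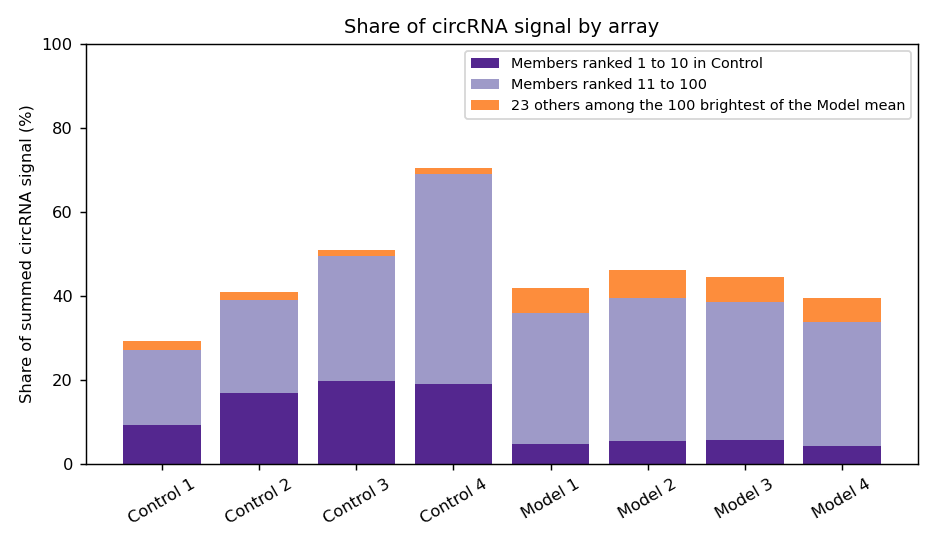
Share of each array's summed circRNA signal (%, y axis from 0 to 100) held by the members ranked 1 to 10 in Control, the members ranked 11 to 100 and the 23 other circRNAs among the 100 brightest of the Model mean. The dark segment is larger on every Control array (9.32% to 19.8%) than on any Model array (4.22% to 5.77%), which does not hold without its 2 brightest circRNAs, and the orange segment smaller (1.45% to 2.16% against 5.73% to 6.61%). Both directions are favoured by the choice, since Control values chose the dark set and Model values the orange.

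Concentration of signal can be tested when each array is ranked by its own values, without use of the list. On Control 1 to 4, however, the array's own brightest circRNA was the member ASCRPR003948. For the single brightest, the Control values are therefore its shares given above and no separate evidence. The single brightest circRNA held 4.38% ± 1.41 in Control and 1.44% ± 0.43 in Model (SD, n = 4), and the groups did not overlap (exact two-sided permutation test, p = 0.0286, the smallest that 4 against 4 allows, and 0.143 after Benjamini-Hochberg adjustment over 5 measures). The 10 brightest held 17.7% ± 5.28 and 9.07% ± 1.82 (SD, n = 4), with an exact permutation p of 0.0571 and 0.143 adjusted. For the single brightest, 4 of 4 Model arrays lay below every Control array, but on this scaling no measure passed after adjustment. In the deposited log2 table the difference for the single brightest was -0.25 percentage points (exact permutation p = 0.143) in place of -2.94, and that for the 10 brightest was 0.83 (exact permutation p = 0.429) in place of -8.58.

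Further down the ranking, on the scanner scale, the group means were closer than the Control arrays were to each other. The share of the 100 brightest was 47.6% ± 19.0 in Control and 40.2% ± 3.0 for Model (SD, n = 4), with an exact permutation p of 0.6 and 0.743 adjusted, and it was 0.987 percentage points higher in Model without Control 4. The share of the 1000 brightest was 72.3% ± 13 and 80.7% ± 0.10 (SD, n = 4), with an exact permutation p of 0.314 and 0.524 adjusted. To reach 50% of the signal took 583 circRNAs on Control 1 and 33 on Control 4, with the other Control arrays between, against 140 to 189 in Model (exact permutation p = 0.743, also 0.743 adjusted). In the deposited table these 3 measures passed, each with an exact permutation p of 0.0286 and 0.0476 adjusted over the 5. Its Model arrays were nearly alike, with an SD of 0.37 for the share of the 100 brightest against 3.0 on the scanner scale. A scaling that aligns arrays can itself set such shares, and the scaling used there is not given. Nothing is therefore read from these p-values. In that table the Model share was 7.49 percentage points higher for the 100 brightest, against -7.42 on the scanner scale, and 4.16 higher for the 1000 brightest. The number of circRNAs for 50% of the signal differed by -46.5.

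Turnover was modest in number. Of the 100 members, 77 were also among the 100 highest of the Model mean, 20 more were within the 200 highest, and 3 lay further down. Those 3 were ASCRPR005389 at rank 240, ASCRPR013743 at 346 and ASCRPR008579 at 3546. On single arrays, 81, 76, 78 and 77 members were among the 100 brightest of Model 1 to 4, and 95 to 97 among the 200 brightest. The corresponding counts on Control 1 to 4, which chose the members, were 85, 92, 91 and 79. A core of 52 circRNAs, all of them members, was among the 100 brightest on each of the 8 arrays.

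Turnover between groups was set beside turnover among Control arrays by choosing 100 circRNAs from 3 Control arrays and counting them on the array left aside. With Control 1 left aside, 78 of the 100 were among its brightest 100, against 70 to 75 on the Model arrays. For Control 2 the counts were 86 against 73 to 76, and for Control 3 they were 90 against 76 to 82. For Control 4 the order turned, with 75 against 77 to 82. An unused Control array thus kept more of the list than any Model array in 3 of 4 cases, and fewer than every Model array in the case of Control 4.

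**Figure D5:**
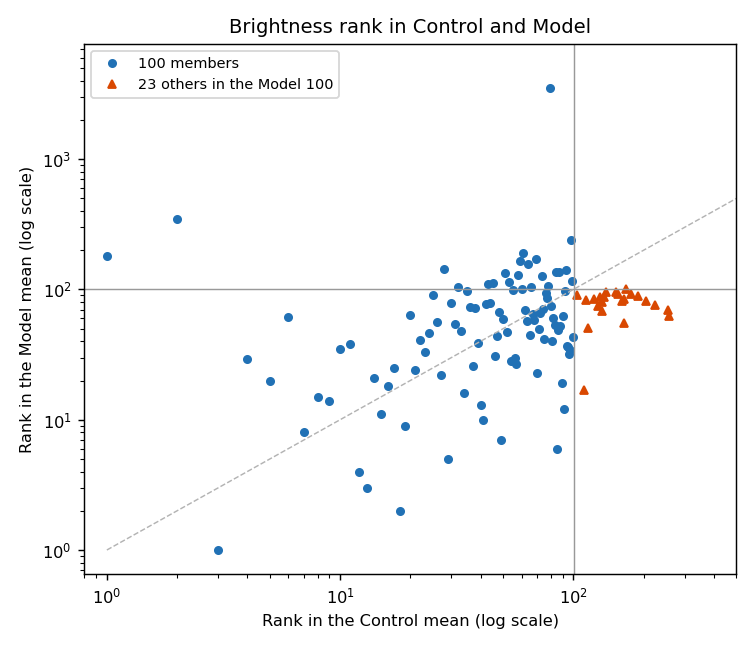
Rank in the Control mean against rank in the Model mean, both on log scales, for the 100 members and for the 23 other circRNAs among the 100 highest of the Model mean, with grey lines at the edge of the 100. Most points that cross a line stay near it, and the points far above are ASCRPR003948 (rank 1 to 180), ASCRPR013743 (2 to 346) and ASCRPR008579 (79 to 3546).

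Places at the head of the list also changed. Of the 10 brightest in Control, 2 were among the 10 highest of the Model mean and 1 or 2 among the 10 brightest of each Model array. On Control 1 to 4, which chose them, 4, 8, 9 and 6 were among the array's own 10. The largest fall was that of ASCRPR008579, at 3.96, 5.93, 6.16 and 6.39 on Control 1 to 4 and at -0.32, 1.65, -0.14 and -1.32 on Model 1 to 4, a mean difference of -5.64 (SE 0.65), or 49.9-fold. ASCRPR013743 followed with -4.93 (SE 0.84). With the normexp background correction their order turned, at -4.80 for ASCRPR008579 and -4.98 for ASCRPR013743. These 2 circRNAs and ASCRPR003948 were the sole members more than 4-fold lower in Model. They also had the 3 largest SDs over the Model arrays (1.24, 1.82 and 0.96), each with Model 2 highest and Model 4 lowest.

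The largest gains were in circRNAs from the lower part of the list. ASCRPR003470 was at 5.72, 6.02, 5.08 and 5.25 on Control 1 to 4 and at 8.55, 8.65, 8.57 and 8.42 on Model 1 to 4, moving from rank 85 to rank 6. Its mean difference was 3.03 (SE 0.22), or 8.16-fold. ASCRPR005696 was at 5.25, 5.49, 4.92 and 6.16 on Control 1 to 4 and at 8.24, 8.06, 8.30 and 8.05 on Model 1 to 4, moving from rank 91 to rank 12, with a difference of 2.71 (SE 0.25). All Model values of both lay above all Control values. Under quantile normalization the differences were smaller but of the same sign, at 2.16 and 1.84.

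In the limma fit over all probes, 33 members passed an adjusted p under 0.05 as higher in Model, where 22.1% of the 13585 tested circRNAs did so, and 4 as lower, where 25.0% did. The 4 were ASCRPR003948, ASCRPR013743, ASCRPR008579 and ASCRPR012050, the last named after its values were seen, with 6.55 to 7.19 in Control and 5.59 to 6.54 in Model. Groups did not overlap for 26 members with Model higher and 4 with Model lower (20.6% and 22.4% of all tested). The median difference of the members was 0.68, against -0.03 over all tested. Since Control values chose the members, nothing is read from these counts. They also hung on the arrays and the scaling: 67 were called higher without Control 4 (22.7% of all), 91 without Controls 3 and 4 (21.8%), and 18 under quantile normalization with 19 lower (22.0% and 19.0%), where the median difference was -0.13. The deposited table gave 35 higher and 13 lower (20.2% and 16.7% of all), and a fit with the replicate number as a block 36 and 4 (20.3% and 23.4%).

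On this scaling, the answer for a member depended on which Control array it was set against. All 4 Model arrays lay above Control 1 for 95 members, above Control 2 for 91, above Control 3 for 58 and above Control 4 for 26. All 4 lay below Control 4 for 64 members and below Control 1 for 4. Over all eligible circRNAs these shares moved little, from 33.9% to 39.3% for Model above and from 38.5% to 40.1% for Model below.

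The 23 circRNAs that took the places of the leavers came from just below the list. Their Control ranks ran from 104 to 258, and 19 of them lay within the Control 200. Highest in Model was ASCRPR013790, at 5.45, 5.44, 4.49 and 4.52 on Control 1 to 4 and 8.05, 7.98, 8.07 and 8.29 on Model 1 to 4, moving from rank 111 to rank 17. ASCRPR007100 was at 4.51 to 5.25 in Control and at 7.22, 8.02, 7.19 and 7.24 on Model 1 to 4. Their joint share of summed signal was 1.45% to 2.16% in Control and 5.73% to 6.61% in Model. Chosen for their Model values, they too are a description.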

How the data were processed

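RNase R-treated RNA from 4 Control and 4 Model samples was hybridised to 1-colour Cy3 arrays, 1 μg of cRNA for 17 h at 65 °C, per the labels' protocols. Per the file headers, Agilent Feature Extraction 11.0.1.1 gave the processed signal, an intensity after background subtraction and detrending. A log2 table deposited by the authors, with scaling not given in the sources used here, served as an alternative (column medians 5.61 to 5.63).

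Spots flagged as non-uniform were left out (56 circRNA probes). Levels are log2 intensity less the 75th percentile over an array's non-control probes. limma 3.58.1 in R 4.3.3 (lmFit, eBayes) compared Model with Control over 13646 circRNA and mRNA probes well above background on at least 4 arrays. Adjustment was by Benjamini-Hochberg, with a threshold of 0.05. The fit was also run on simulated data with equal spread in both groups and independent probes. The members here differ in both respects, so that run does not speak to them. Array measures were compared by exact permutation over 70 splits. The number of arrays limits the precision. Alternatives were quantile normalization, median centring, a percentile over probes detected on all arrays, normexp, median signal, other filters, list sizes and averages, a robust trend, blocks for replicate number and scanning run, and leaving out arrays.

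Named are the 10 brightest members, those at the edge of the list, the 2 largest falls and rises, the 2 brightest newcomers and the 2 most and least variable members. Members and lists were chosen with earlier results of these data known.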

Additional observations from a re-analysis of the deposited data

Results flagged for a closer look

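Of 60 sets of 4 arrays examined for the values above, 3 had 1 array far from the other 3, about the 1 in 20 that chance gives. ASCRPR007100 stood at 8.02 on Model 2, the other Model arrays being at 7.19 to 7.24. ASCRPR008843 was at 6.92 on Model 4 against 7.10 to 7.13. The share of circRNA signal in an array's own 1000 brightest probes was 80.84% on Model 3 against 80.63% to 80.66%. Over all 100 members, 15 of 200 such sets had an array apart, 6 of them through Model 2 and 5 through Control 4.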

How the results depend on the processing

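The share of members also among the 100 highest of the Model mean, 77.0%, stayed between 71.0% and 80.0% when 1 array was left out, and at 62.0% to 80.0% under all 18 alternatives run, lowest for the 50 highest. Calls moved more. Members called higher were 30 to 67 with 1 array left out, the top of the range without Control replicate 4; 91 without Controls 3 and 4, chosen after seeing the data; and 18 under quantile normalization. Members called lower were 4 to 6 with 1 array left out, 19 under quantile normalization and 13 in the deposited table. Over all circRNAs, 3009 were higher and 3397 lower; leaving out 1 array gave 2419 to 3365 and 2767 to 3601. Median centring gave 4684 and 2174 and moved the median circRNA from -0.03 to 0.29, run as a random block 1912 and 2130, and normexp 1357 lower. Blocking on replicate number gave 36 and 4 members and 2762 and 3180 circRNAs. Deviations of same-numbered arrays correlated with r of -0.18 to 0.19, which neither shows nor excludes a pairing by number.

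The members' mean Model share of 36.9% was 40.4% under quantile normalization and 50.9% in the deposited table. Their mean Control share was 38.6% to 52.5% with 1 array left out, and Model minus Control -15.6 to -1.64 percentage points, but 3.88 without Controls 3 and 4 and 4.44 in the deposited table. For each array's own ranking, Model minus Control for the single brightest was -3.45 to -2.33 points with 1 array left out and -0.25 in the deposited table. For the 10 brightest it was -11.0 to -7.09 and 0.83; for the 100 brightest -13.9 to 0.987 and 7.49; for the 1000 brightest 3.67 to 14 and 4.16. The number of probes for 50% changed by -145 to 38.5, the positive value without Control 1, and by -46.5 in the table. Of single members, ASCRPR004089 (-0.18) and ASCRPR005492 (-0.40) turned negative under quantile normalization, the latter also in the deposited table (-0.21). The causes were not tested.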

Other observations

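The pattern of the brightest member, ASCRPR003948, over the 8 arrays was most closely followed by dim circRNAs: 485 of 14088 correlated with it at Pearson's r over 0.95, and 2 of them were members, ASCRPR008579 (r = 0.991) and ASCRPR013743 (r = 0.977). The arrays fall into 2 groups, so such an r largely reads the difference between them. Closest was ASCRPR013442 (r = 0.999), with a mean of -0.90 ± 0.14 in Control and -1.89 ± 0.20 in Model (log2, SD, n = 4), a far smaller step than that of ASCRPR003948, from 10.45 to 5.71.

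A few members have identifiers that follow each other. ASCRPR005592 and ASCRPR005593 held Control ranks 64 and 69 and correlated over the 8 arrays at r = 0.998. ASCRPR006554, ASCRPR006555 and ASCRPR006556 held ranks 73, 10 and 6, with r = 0.837 for the first pair and 0.971 for the second. The files do not say what neighbouring identifiers share. Members were spread over the array surface, 53 of 100 in the rows nearest the start of the grid, where 49.9% of all circRNA probes lie.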
